A study of Mus musculus with 12 samples.

Results

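The simple and ductal epithelium genes are 10 genes of single-layered and glandular epithelium: the keratins Krt7, Krt8, Krt18 and Krt19, the secreted proteins Csn3, Wfdc18 and Wfdc2, and the transcriptional regulators Cited1, Elf5 and Foxa1. Their expression was read in mouse skin on 12 arrays, array by array as well as by group, to judge how much glandular epithelium each biopsy held. Each gene was represented by the probe set that carried its symbol alone. All 10 were measured, each by 1 probe set, among 19938 genes with a single-symbol probe set. The genes had been picked because their levels differed between these same arrays, so their differences are described here without a test.

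Skin came from female Balb/c mice, in 4 groups of 3 biological replicates. One group was left untreated, and 3 groups were sampled 1.5 h, 6 h and 24 h after intradermal injection of RNAdjuvant at a labelled dose of 25 mg. RNAdjuvant is a vaccine adjuvant built from a non-coding RNA complexed with a cationic peptide. No carrier-only injection was analysed here, so the injection itself and the adjuvant cannot be told apart. Neither the age of the mice nor the body site of the biopsy is stated in the labels used here.

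Simple epithelium lines ducts, secretory alveoli and many internal organs. Its cells carry filaments of a type II keratin paired with a type I keratin, chiefly Krt8 with Krt18, with Krt7 and Krt19 added in ducts. The stratified epidermis uses Krt5 with Krt14 in its basal layer and has little of the simple pair outside Merkel cells and the appendage glands. In the mammary gland, which lies in the fat under the skin of mice, the luminal cells hold the simple keratins, Foxa1 and Elf5 help to specify the luminal fates, and secretory cells make caseins and whey acidic proteins. Cited1 is a co-activator that works with the estrogen receptor in that gland.

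Promoters are shown for 4 members to compare their upstream sequence. Krt8 and Krt18 form the filament pair and lie near each other on chromosome 15 on opposite strands, Wfdc18 is one of the secreted members, and Foxa1 is a regulator. The sequences are the 250 bases before the annotated start on the GRCm38.p6 build, from RefSeq, in the direction of transcription. Capitals mark every match to 5 short motifs that were searched on both strands. The motifs were the TATA box TATAAA, a forkhead motif TGTTTAC, an ETS motif AGGAAG, an AP-2 motif GCCNNNGGC and a STAT5 motif TTCNNNGAA.
Krt8, chr15:102004343-102004592, minus strand: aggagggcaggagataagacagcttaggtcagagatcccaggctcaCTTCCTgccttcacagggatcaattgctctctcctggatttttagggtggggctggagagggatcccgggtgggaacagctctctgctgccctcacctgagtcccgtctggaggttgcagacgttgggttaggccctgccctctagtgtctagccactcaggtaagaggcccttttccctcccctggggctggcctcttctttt
Krt18, chr15:102027966-102028215, plus strand: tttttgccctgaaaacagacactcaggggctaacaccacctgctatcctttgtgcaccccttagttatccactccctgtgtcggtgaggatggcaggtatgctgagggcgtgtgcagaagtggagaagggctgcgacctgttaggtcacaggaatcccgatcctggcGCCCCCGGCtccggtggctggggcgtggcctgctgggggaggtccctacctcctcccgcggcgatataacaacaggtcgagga
Wfdc18, chr11:83708754-83709003, plus strand: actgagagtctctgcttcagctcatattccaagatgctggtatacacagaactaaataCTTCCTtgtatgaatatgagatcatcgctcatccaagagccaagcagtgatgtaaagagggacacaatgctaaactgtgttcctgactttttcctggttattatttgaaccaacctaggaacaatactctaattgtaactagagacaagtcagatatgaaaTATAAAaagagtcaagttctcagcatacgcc
Foxa1, chr12:57546112-57546361, minus strand: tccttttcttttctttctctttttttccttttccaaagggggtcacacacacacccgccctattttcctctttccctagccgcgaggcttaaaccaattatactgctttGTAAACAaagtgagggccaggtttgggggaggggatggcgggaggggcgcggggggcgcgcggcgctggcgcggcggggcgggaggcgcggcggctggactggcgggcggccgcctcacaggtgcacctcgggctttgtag

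Of the 10 members, 8 matched the promoter table by symbol, and Krt19 and Csn3 are named only. The Krt8 promoter held 1 ETS match, on the reverse strand, and the Krt18 promoter 1 AP-2 match and no ETS match. Wfdc18 had a TATA box that began 31 bases before its start and 1 ETS match on the reverse strand. Foxa1, itself a forkhead factor, had 1 forkhead match on the reverse strand. Among the 8 members, ETS matches occurred in 5, AP-2 matches in 3, a TATA box in 2, a forkhead match in 1 and a STAT5 match in 0. Of 32851 mouse promoters of the same length, 29.5%, 13.7%, 12.4%, 3.17% and 7.02% held these motifs in turn. A member was counted if any of its annotated starts matched, and Cited1, Wfdc2 and Elf5 had more than 1 start. The percentages count each promoter by itself, so the 2 are not like measures. None of the 17 matches in members, counted for each annotated start, overlapped a match to another motif. The windows of the Wfdc2 starts overlap, so the same sites were counted for each of its starts. No motif was common to all 8, and a match of these letters is a description and not a binding site.

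The keratin pair Krt8 and Krt18 was higher in every array at 1.5 h and 24 h than in any untreated array, and at 6 h the pair split. On the log2 scale of the deposited intensities, Krt18 (probe set 10427075) measured 5.51, 5.56 and 5.92 in untreated skin, 9.81, 8.23 and 8.75 at 1.5 h, 9.14, 5.25 and 4.93 at 6 h, and 8.79, 8.13 and 8.52 at 24 h, in the order of replicates 1 to 3. The 6 h group therefore held 1 array at the level of the 1.5 h and 24 h arrays and 2 arrays below all untreated ones. Krt8 (probe set 10432918) measured 6.80, 7.11 and 7.02 in untreated skin, 9.15, 8.12 and 8.08 at 1.5 h, 8.21, 7.59 and 7.45 at 6 h, and 8.33, 8.07 and 8.24 at 24 h. Unlike Krt18, its probe set stayed above the untreated range in all 3 arrays at 6 h. The mean of Krt18 was 5.66 ± 0.22 (SD, n = 3 here and below) in untreated skin and 8.93 ± 0.81 at 1.5 h, a 9.65-fold difference, and 8.48 ± 0.33 at 24 h, a 7.05-fold difference. For Krt8 the means were 6.98 ± 0.16, 8.45 ± 0.61 and 8.21 ± 0.13, or 2.78-fold and 2.35-fold above untreated skin. At 6 h the mean of Krt18 was 6.44 ± 2.34, a spread larger than its difference of 0.78 from untreated skin. These are levels in whole tissue, in which fewer cells of a type and less RNA per cell cannot be told apart.

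**Figure D1:**
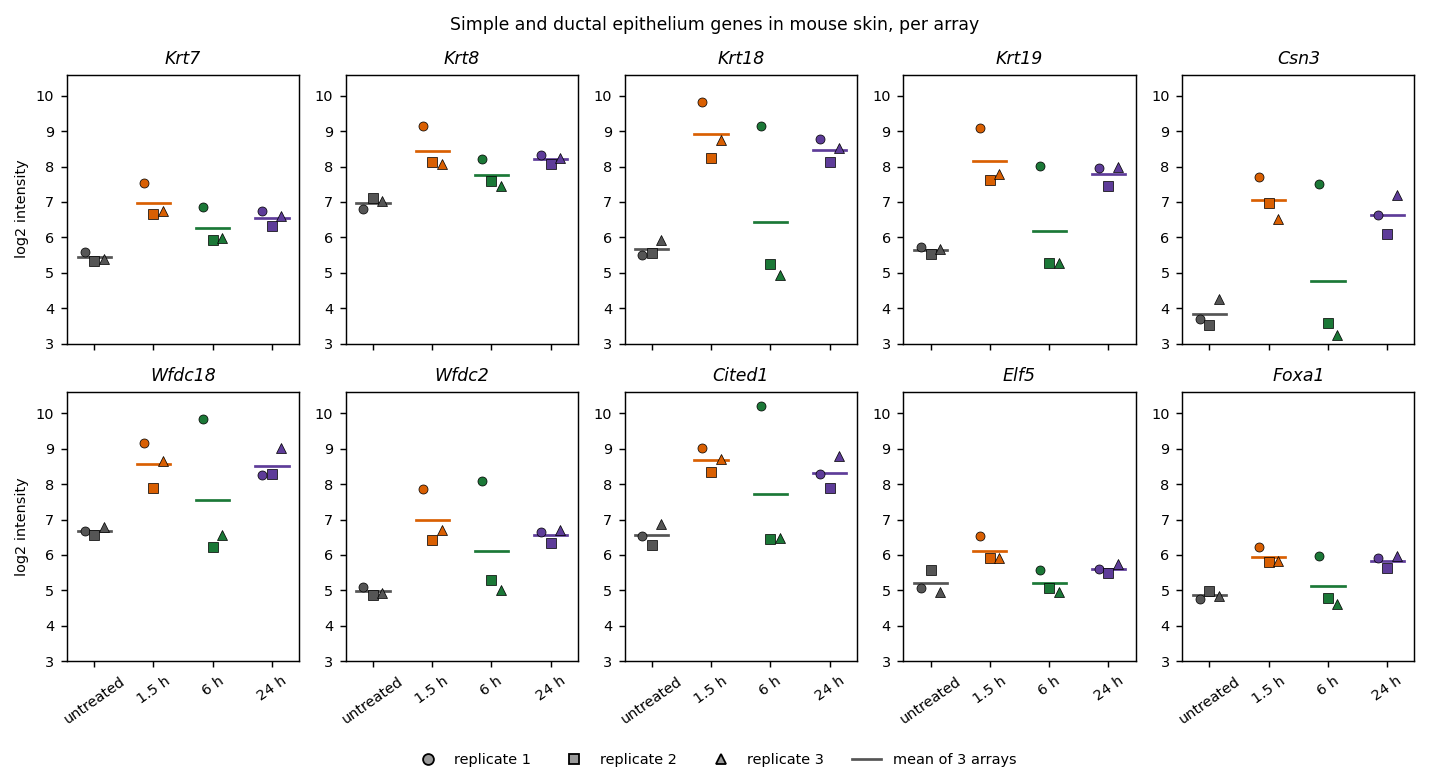
Log2 intensity of each of the 10 genes (vertical axis) in untreated skin and at 1.5 h, 6 h and 24 h (horizontal axis), with 1 point per array, the shape giving the replicate, and a line at the mean of 3 arrays. All 10 genes lie above the untreated points at 1.5 h, and at 6 h replicate 1 lies above replicates 2 and 3 in all 10 panels.

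The ductal keratins followed the same division, Krt19 as Krt18 did and Krt7 as Krt8 did. Krt19 (probe set 10391036), the type I keratin without a tail domain, measured 5.72, 5.52 and 5.68 in untreated skin, 9.09, 7.61 and 7.79 at 1.5 h, 8.02, 5.29 and 5.27 at 6 h, and 7.97, 7.45 and 7.98 at 24 h. Its 1.5 h and 24 h arrays all lay above untreated skin, and 6 h replicates 2 and 3 lay below it. Krt7 (probe set 10427052), the type II keratin of ducts, measured 5.60, 5.34 and 5.39 in untreated skin, 7.53, 6.66 and 6.76 at 1.5 h, 6.87, 5.93 and 5.97 at 6 h, and 6.74, 6.31 and 6.60 at 24 h. No Krt7 array of treated skin overlapped the untreated range. Means of Krt19 were 5.64 ± 0.11, 8.17 ± 0.81, 6.19 ± 1.58 and 7.80 ± 0.30 in time order, which is 5.75-fold above untreated skin at 1.5 h, 1.47-fold at 6 h and 4.46-fold at 24 h. Those of Krt7 were 5.44 ± 0.14, 6.98 ± 0.48, 6.26 ± 0.53 and 6.55 ± 0.22, which is 2.9-fold, 1.76-fold and 2.15-fold.

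Among the secreted members the milk protein gene Csn3 had the widest separation. Csn3 (probe set 10522895) encodes kappa casein, which keeps casein micelles in solution. It measured 3.70, 3.54 and 4.26 in untreated skin, 7.70, 6.98 and 6.51 at 1.5 h, 7.50, 3.57 and 3.24 at 6 h, and 6.64, 6.10 and 7.19 at 24 h. Thus the lowest array at 1.5 h or 24 h lay well above the highest untreated one, and at 6 h replicate 1 alone did so. The mean was 3.83 ± 0.38 in untreated skin, 7.07 ± 0.60 at 1.5 h, a 9.39-fold difference, and 6.64 ± 0.54 at 24 h. Csn2, the gene of beta casein and the most familiar milk casein, did not accompany it, with 4.26 ± 0.13 in untreated skin and 4.09 ± 0.23, 4.32 ± 0.32 and 4.24 ± 0.08 at the 3 times.

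Wfdc18 and Wfdc2 encode small secreted proteins with the four-disulfide core fold of whey acidic protein. Wfdc18 (probe set 10379731) measured 6.67, 6.56 and 6.79 in untreated skin, 9.18, 7.88 and 8.65 at 1.5 h, 9.85, 6.23 and 6.56 at 6 h, and 8.25, 8.28 and 9.02 at 24 h. Wfdc2 (probe set 10478525) measured 5.10, 4.88 and 4.94, then 7.87, 6.43 and 6.71, then 8.08, 5.29 and 5.0, and 6.64, 6.33 and 6.71 in the same order. For both genes the single highest array was 6 h replicate 1, whereas 6 h replicates 2 and 3 lay at or near the untreated range. At 1.5 h the means stood 3.72-fold (Wfdc18) and 4.09-fold (Wfdc2) above untreated skin, and at 24 h 3.58-fold and 3.01-fold. The SD of the 6 h group was 2.00 for Wfdc18 and 1.70 for Wfdc2, against 0.12 and 0.11 in untreated skin.

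The regulators divided by size. Cited1 (probe set 10606083) measured 6.54, 6.27 and 6.87 in untreated skin, 9.01, 8.35 and 8.70 at 1.5 h, 10.21, 6.46 and 6.48 at 6 h, and 8.27, 7.88 and 8.79 at 24 h. Its value in 6 h replicate 1 was the highest of any array, and its mean was 4.36-fold above untreated skin at 1.5 h and 3.37-fold at 24 h. Foxa1 (probe set 10400504), the pioneer factor through which the estrogen receptor reaches its sites, measured 4.76, 4.98 and 4.85, then 6.23, 5.80 and 5.82, then 5.96, 4.77 and 4.62, and 5.91, 5.64 and 5.96. Its range over the arrays was smaller than that of Cited1, with means that were 2.13-fold (1.5 h) and 1.97-fold (24 h) above untreated skin. Elf5 (probe set 10474171), the ETS factor of secretory luminal cells, measured 5.07, 5.57 and 4.94, then 6.55, 5.90 and 5.91, then 5.58, 5.07 and 4.96, and 5.61, 5.50 and 5.73. Elf5 had the smallest difference of the 10, 1.9-fold above untreated skin at 1.5 h, and the only one whose 24 h arrays overlapped the untreated ones.

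The 10 genes moved together from array to array. Each correlated with the mean of the other 9 over the 12 arrays at r = 0.82 (Elf5) to 0.99 (Krt18), a description of points that share 4 groups and a common processing. The genes had been picked because their levels differed between these arrays, which favoured high values of r, so nothing is read from them. Averaged over the 10 genes, untreated arrays stood at 5.55, 5.53 and 5.67, the 1.5 h arrays at 8.21, 7.20 and 7.37, the 6 h arrays at 7.94, 5.55 and 5.45, and the 24 h arrays at 7.32, 6.97 and 7.47. By this mean, 6 h replicates 2 and 3 were level with untreated skin, and 6 h replicate 1 lay between 1.5 h replicates 1 and 3. Of the 10 genes, 10 exceeded their highest untreated value in each 1.5 h array, 10, 3 and 2 did so in 6 h replicates 1, 2 and 3, and 10, 9 and 10 in the 24 h replicates. The share of all genes that did so was not counted, and the members were chosen on these arrays. Nothing is therefore read from these counts per array. The highest array was 1.5 h replicate 1 for 7 genes and 6 h replicate 1 for Wfdc18, Wfdc2 and Cited1.

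The group differences follow from these arrays. The median difference of the members from untreated skin was 1.96 at 1.5 h, 0.80 at 6 h and 1.67 at 24 h on the log2 scale, beside medians of 0.02, -0.04 and 0.00 over all 19938 genes. At 1.5 h, 10 of 10 members were higher without overlap between the groups, as were 11.8% of all genes. At 24 h, 9 of 10 lay above untreated skin without overlap, against 10.9% of all genes, and at 6 h Krt7 and Krt8 did, against 11.4%. Nothing is read from these counts, since the genes were chosen on the same contrasts.

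The 24 h level lay below the 1.5 h level for all 10 member means, by 0.05 (Wfdc18) to 0.51 (Elf5) on the log2 scale. Elf5 alone had 24 h arrays entirely below its 1.5 h arrays, as were 9.12% of all genes. Without 1.5 h replicate 1, the mean difference of the 10 genes between 24 h and 1.5 h went from -0.34 to -0.03. From 1.5 h to 6 h the mean difference was -1.28, and it was -2.09 without 6 h replicate 1. In that comparison Elf5 was lower without overlap, as were 19.8% of all genes. From 6 h to 24 h the mean difference was 0.94, 1.75 without 6 h replicate 1 and 0.51 without 6 h replicate 3.

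The 6 h group was the one in which biopsies of the same label disagreed. Replicate 1 exceeded the mean of replicates 2 and 3 by 17.1-fold for Csn3, 16.5-fold for Krt18, 13.4-fold for Cited1, 11-fold for Wfdc18, 7.63-fold for Wfdc2 and 6.67-fold for Krt19. The gap was 2.41-fold for Foxa1, 1.89-fold for Krt7, 1.61-fold for Krt8 and 1.48-fold for Elf5. Over the whole array such gaps were few. In replicate 1, 86 genes (0.431% of 19938) lay at least 1 log2 unit above both other 6 h arrays, 7 of them members, and 15 genes lay at least 2 units above, 6 of them members. Nothing is read from the share of members, since they had been picked on these arrays. Replicate 2 stood that far above both others for 4 genes and 0 genes, and replicate 3 for 12 genes and 1 gene, none a member.

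Without 6 h replicate 1 the mean difference of the 10 genes from untreated skin at 6 h turned from 0.73 to -0.08. In replicates 2 and 3 together, Krt8 lay 0.54 and Krt7 0.51 above the untreated mean, Wfdc2 0.18 above it, and the other 7 between -0.57 (Krt18) and -0.09 (Cited1). The probe sets of Krt7 and Krt8 therefore kept part of their elevation in arrays where their type I partners Krt18 and Krt19 had none. Genes raised after treatment did not all run alike in these 3 biopsies. Rsad2, an antiviral gene induced by interferon, measured 11.21, 11.33 and 11.49 in 6 h replicates 1, 2 and 3, against 5.03 to 5.40 in untreated skin. S100a9, a calprotectin subunit of neutrophils and stressed epidermis, measured 9.53, 7.61 and 8.05 in the same order, and the siderophore-binding gene Lcn2, with 9.47, 7.21 and 6.97, was divided in the same way. Both were chosen after their values were seen, and the part of the response in the split was not tested.

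Markers of lymph node, fat and stressed epidermis moved with some of these arrays. Glycam1, a mucin-like ligand made by the high endothelial vessels of lymph nodes and also by lactating mammary gland, measured 11.38 in 1.5 h replicate 1 and 10.88 in 6 h replicate 1, and 3.87 to 4.46 in the other 10 arrays. The mean of 14 lymph node and B cell genes, Glycam1 included, was 6.70 in 1.5 h replicate 1 and 6.55 in 6 h replicate 1, 4.73 to 4.77 in untreated skin, and 4.64 to 5.10 in the other 7 arrays. In each of those biopsies 8 of the 14 genes lay at least 1 log2 unit above both other arrays of the group. These were the biopsies in which the epithelial genes were highest. The other 1.5 h arrays and the 24 h arrays held the epithelial genes between 6.97 and 7.47 with lymph node genes between 4.64 and 5.10. Without both biopsies, the mean difference of the 10 members was 1.70 at 1.5 h, 1.67 at 24 h and -0.08 at 6 h. The part of lymph node tissue in the levels of those biopsies was not tested.

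Within the 6 h group, fat tissue genes were lower in the biopsies with low epithelial genes. The mean of 11 fat cell genes was 9.70 in 6 h replicate 1 and 8.79 and 8.98 in replicates 2 and 3. It was 9.28 to 9.98 in the 1.5 h and 24 h arrays. In untreated skin, where the epithelial genes were also low, the fat cell mean was 9.78, 9.55 and 9.68, so low epithelial genes did not always go with low fat genes. Pck1, a fat cell enzyme of glycerol synthesis, was called lower at 6 h, which here and below means an adjusted p under 0.05 in limma (difference -2.23, adjusted p = 0.00172), with 7.45 in replicate 1 and 5.89 and 6.34 in replicates 2 and 3. Adipoq, the fat cell hormone gene, had a difference of 0.10 at 1.5 h (adjusted p = 0.818). The part of fat in the epithelial levels was not tested.

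Stress keratins of the epidermis were also high in 6 h replicate 1. The mean of 10 epidermis genes was 9.27 there, the highest of the 12 arrays, against 8.36 and 8.55 in 6 h replicates 2 and 3 and 8.73 to 8.95 in untreated skin. Of the 10 genes, 3 lay at least 1 log2 unit above both other 6 h arrays, and all 3 were chosen after their values were seen. Krt6b, a keratin of stressed and follicular epidermis, measured 8.71, 4.61 and 5.55 in 6 h replicates 1, 2 and 3, and its partner Krt16 measured 9.34, 7.17 and 7.22. Sprr1b, a cornified envelope precursor, measured 9.62, 7.65 and 7.54. At 1.5 h and 24 h these genes did not accompany the members, with Krt6b at 5.49 to 5.65 and 4.68 to 6.48 against 5.15 to 6.59 in untreated skin. The part of epidermis in the split of the 6 h group was not tested.

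**Figure D2:**
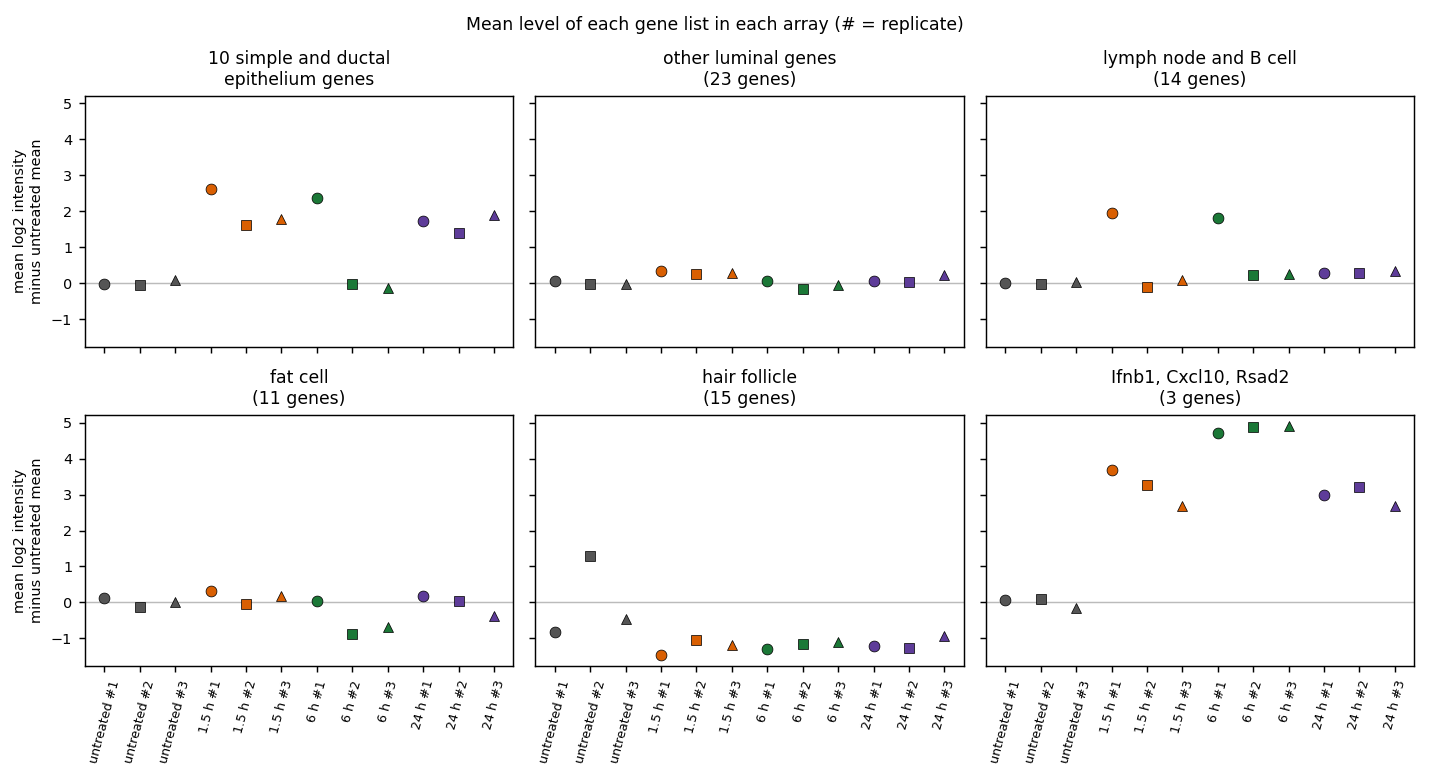
Mean log2 intensity of a gene list in each of 12 arrays minus its mean in the 3 untreated arrays (vertical axis), for the 10 members and 5 comparison lists, with colour for the group and shape for the replicate. The members stand high in all 1.5 h and 24 h arrays and in 6 h replicate 1, the lymph node list stands high in 1.5 h replicate 1 and 6 h replicate 1, and the 3 response genes are high in all 9 treated arrays.

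The members were set beside a wider list of luminal epithelium genes, and that list moved far less than the 10 members. The members had been picked on these arrays, so the gap was favoured by that choice and does not check their label. Of 23 other luminal genes measured, 0 were called at 1.5 h and 0 at 6 h, and 2 rose at 24 h, beside 2.20%, 6.09% and 3.36% of all genes called in either direction. At an unadjusted p under 0.05 in limma, 8, 6 and 8 of the 23 differed, beside 3490, 4616 and 3407 of all 19938 genes. These all-gene counts at 1.5 h, 6 h and 24 h are also the background for the unadjusted counts of the lists below. The median difference of the list was 0.16, -0.19 and -0.08 at the 3 times. Its mean lay between 7.18 and 7.25 in untreated arrays, 7.46 and 7.54 at 1.5 h, 7.04 and 7.26 at 6 h, and 7.24 and 7.42 at 24 h. Epcam, the surface adhesion protein of nearly all simple epithelium and of hair follicle, was 8.68 ± 0.07 in untreated skin and differed by 0.06 at 1.5 h (adjusted p = 0.857). The 2 that rose at 24 h were Ltf, the milk and neutrophil iron-binding protein (difference 1.84, adjusted p = 0.0455), and Atp6v1b1, a proton pump subunit (difference 0.65, adjusted p = 0.0469). Neither call held throughout, since that of Ltf was lost without any one of 7 arrays (adjusted p up to 0.153) and that of Atp6v1b1 without any one of 8 (up to 0.193). Ltf, Muc1, Ceacam1 and Tspan8 had differences of 1.64, 0.71, 0.75 and 0.71 at 1.5 h, with adjusted p of 0.0867, 0.0687, 0.0899 and 0.18. Each gene had 1 variance over all 4 groups, so the spread of its 6 h arrays also entered the calls at 1.5 h and 24 h. Without 6 h replicate 1, 16, 5 and 13 genes of all the other lists were called at 1.5 h, 6 h and 24 h. With all arrays these counts were 10, 6 and 8. The wider list gave few calls, so the members are described by their own names and not as a measure of a cell type.

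Milk and secretion genes other than the members gave few calls. Of 18 measured, 1 rose at 1.5 h, 1 rose at 6 h, and at 24 h 1 rose and 1 fell, with median differences of 0.21, 0.11 and 0.07. In limma, 7, 5 and 3 of the 18 had an unadjusted p under 0.05 at 1.5 h, 6 h and 24 h. Folr1, a folate receptor, rose at 1.5 h by 0.49 (adjusted p = 0.0294), a call lost without any one of 5 arrays (up to 0.118). Xdh, the xanthine oxidoreductase that coats milk fat globules and is also made outside the gland, was 8.58 ± 0.14 in untreated skin and 8.34 ± 0.08, 10.19 ± 0.09 and 9.42 ± 0.17 at 1.5 h, 6 h and 24 h. It rose at 6 h (adjusted p = 5.38e-07) and 24 h (adjusted p = 0.000532). Its order of groups was thus unlike that of the members, highest at 6 h in all 3 arrays. Slc34a2, a phosphate transporter, was the 1 that fell at 24 h (difference -0.79, adjusted p = 0.0267), lost without any one of 5 arrays (up to 0.104). Glycam1 belongs to this list too and had the largest difference in it at 1.5 h, 2.61 (adjusted p = 0.483), from 1 array. Btn1a1, the butyrophilin of the milk fat globule, and Fabp3, a fatty acid carrier, had differences of 0.96 and 0.93 at 1.5 h (adjusted p = 0.0587 and 0.134).

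Of 23 gland transcription factor genes beside Cited1, Elf5 and Foxa1, 0 were called at 1.5 h by limma, where 10 had an unadjusted p under 0.05. Spdef, an ETS factor of secretory cells, rose at 6 h by 0.46 (adjusted p = 0.0438, lost without any one of 8 arrays, up to 0.175), and Tfap2a, an AP-2 factor of epidermis and gland, fell at 24 h by 0.77 (adjusted p = 0.00541). Tbx3, Pgr and Elf3 had the differences 0.79, 0.72 and 0.55 at 1.5 h with adjusted p of 0.0515, 0.645 and 0.108. The median of the list was 0.05, -0.17 and -0.07. Myoepithelial cells wrap the ducts and contract, and of 12 of their genes 2 fell at 1.5 h, Myh11 by 1.48 (adjusted p = 0.0078) and Mylk by 1.12 (adjusted p = 0.0213). Smooth muscle of vessels and hair also expresses both. The call of Mylk was lost without any one of 4 arrays (up to 0.0902). Lgr6, a receptor of epidermal and gland stem cells, fell at 24 h by 0.71 (adjusted p = 0.00911).

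Other places where simple keratins occur in skin were checked in the same way. Of 12 Merkel cell genes, 0 were called by limma at any of the 3 times (2, 1 and 2 at an unadjusted p under 0.05), their mean stayed between 4.88 and 5.08 in all 12 arrays, and Krt20 differed by 0.05 at 1.5 h (adjusted p = 0.863). Of 12 sweat gland genes, 1 was called at 1.5 h, Foxc1, which fell by 0.63 (adjusted p = 0.0214, lost without any one of 4 arrays, up to 0.0863), and 0 at 6 h and 24 h, with 1 and 4 at an unadjusted p under 0.05. Aqp5, the water channel of sweat gland secretory cells, had a difference of 0.71 at 1.5 h (adjusted p = 0.0829). Of 13 sebaceous gland genes, 4 fell at 1.5 h, with a median difference of -0.67, and 0 were called at 6 h and 24 h, with 4 and 7 at an unadjusted p under 0.05. Awat2, a wax synthase of that gland, fell by 1.48 (adjusted p = 0.0183, 0.0855 without untreated replicate 3), and Far2, which makes fatty alcohols, by 1.26 (adjusted p = 0.0247, lost without any one of 3 arrays, up to 0.107). Mc5r and Acsbg1 were the others, with calls lost without any one of 3 and 5 arrays.

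Few surface and deep tissue genes were called against untreated skin, though the median of the hair follicle list was lower at all 3 times. The basal keratins Krt5 and Krt14 had differences of -0.01 and 0.06 at 1.5 h (adjusted p = 0.983 and 0.852), and 2 of 10 epidermis genes were called against untreated skin, Krt1 and Lor, which fell at 24 h by 0.44 and 0.46 and lost the call without any one of 9 and 6 arrays. Of 15 hair follicle genes, Hoxc13 and Lhx2 fell at 1.5 h and Krt25 and Krt71 fell at 6 h. At an unadjusted p under 0.05 in limma, 11, 7 and 9 of the 15 differed at 1.5 h, 6 h and 24 h. The median differences of the list were -0.85, -0.66 and -0.80. Its mean was 8.33 in untreated replicate 2 against 5.57 to 6.56 in the other 11 arrays. The call of Krt25 at 6 h (difference -3.55, adjusted p = 0.024) and that of Krt71 were each lost without any one of 3 arrays, that of Hoxc13 without any one of 5 and that of Lhx2 without untreated replicate 2. Of 14 skeletal muscle genes, 0 were called by limma at any time (2, 0 and 0 at an unadjusted p under 0.05), and Ckm differed by 0.27 at 1.5 h (adjusted p = 0.491). In the lymph node list, Cxcl13, a chemokine of B cell follicles, rose at 6 h by 1.21 (adjusted p = 0.0348, lost without any one of 5 arrays, up to 0.108), and Cd79b had a difference of 1.35 at 1.5 h (adjusted p = 0.306). The treatment itself was visible in every treated array: Ifnb1, Cxcl10 and Rsad2 rose at all 3 times, with Ifnb1 up by 4.34 at 1.5 h (adjusted p = 1.37e-08).

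**Figure D3:**
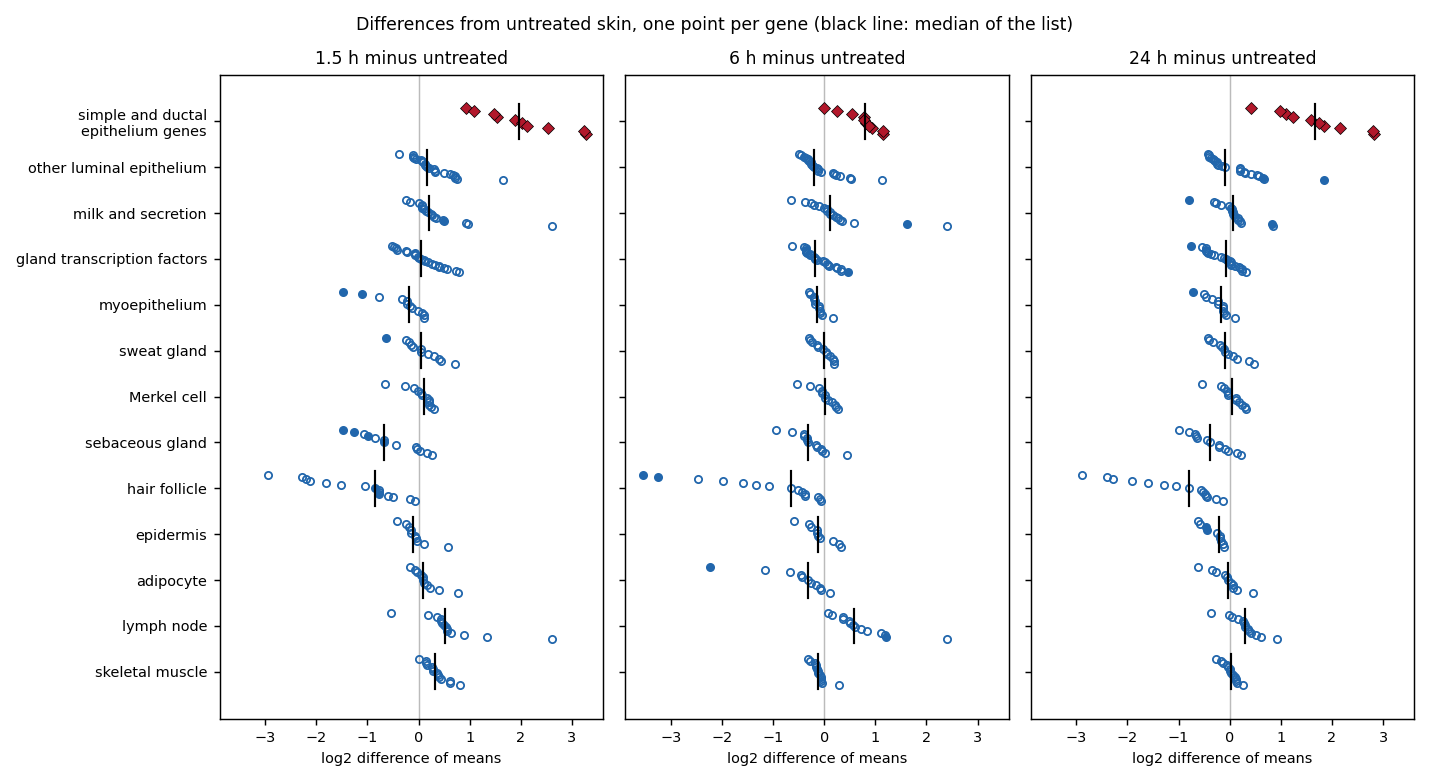
Difference of the group mean from untreated skin on the log2 scale (horizontal axis) for each gene of the members and 12 lists (rows) at 1.5 h, 6 h and 24 h, with filled circles for genes at an adjusted p under 0.05, open circles for the rest and a black line at each median. Members are drawn as diamonds with no test, and their medians of 1.96, 0.80 and 1.67 lie to the right of every list median. The choice of the members on these arrays favours that order.

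The genes outside the set whose pattern over the 12 arrays was most like the mean of the members were searched among 2890 named genes with a range of at least 1 log2 unit. They were Stc2 (r = 0.95), Lcn2 (0.95), Ltf (0.93), Cxcr2 (0.91), Arxes2 (0.91), Hc (0.90), Nudt7 (0.90), Muc1 (0.90), Klhl6 (0.89) and Aqp5 (0.88). The arrays share groups and fall apart into levels, so these coefficients describe the arrays and carry no p. Ltf, Muc1 and Aqp5 were on the lists of luminal, secretory or sweat gland genes, and the other 7 were on none. Stc2, a secreted glycoprotein, measured 6.40, 6.21 and 6.62 in untreated skin, 7.89, 7.40 and 7.20 at 1.5 h, 8.23, 6.04 and 6.36 at 6 h, and 7.45, 6.96 and 7.22 at 24 h. It showed the same split of the 6 h group. Lcn2, a siderophore-binding protein of epithelium and neutrophils, measured 9.47, 7.21 and 6.97 at 6 h against 5.86 to 6.63 in untreated skin, so that its low 6 h arrays still lay above the untreated ones. Cxcr2, the neutrophil chemokine receptor, measured 6.17, 4.45 and 5.06 at 6 h against 4.38 to 4.60. Arxes2, a gene of fat cells, measured 8.26, 5.50 and 5.57 at 6 h, the last 2 below the untreated range of 6.30 to 6.61. Without both arrays high in Glycam1, 4 of these 10 genes were again among the 10 most alike.

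**Figure D4:**
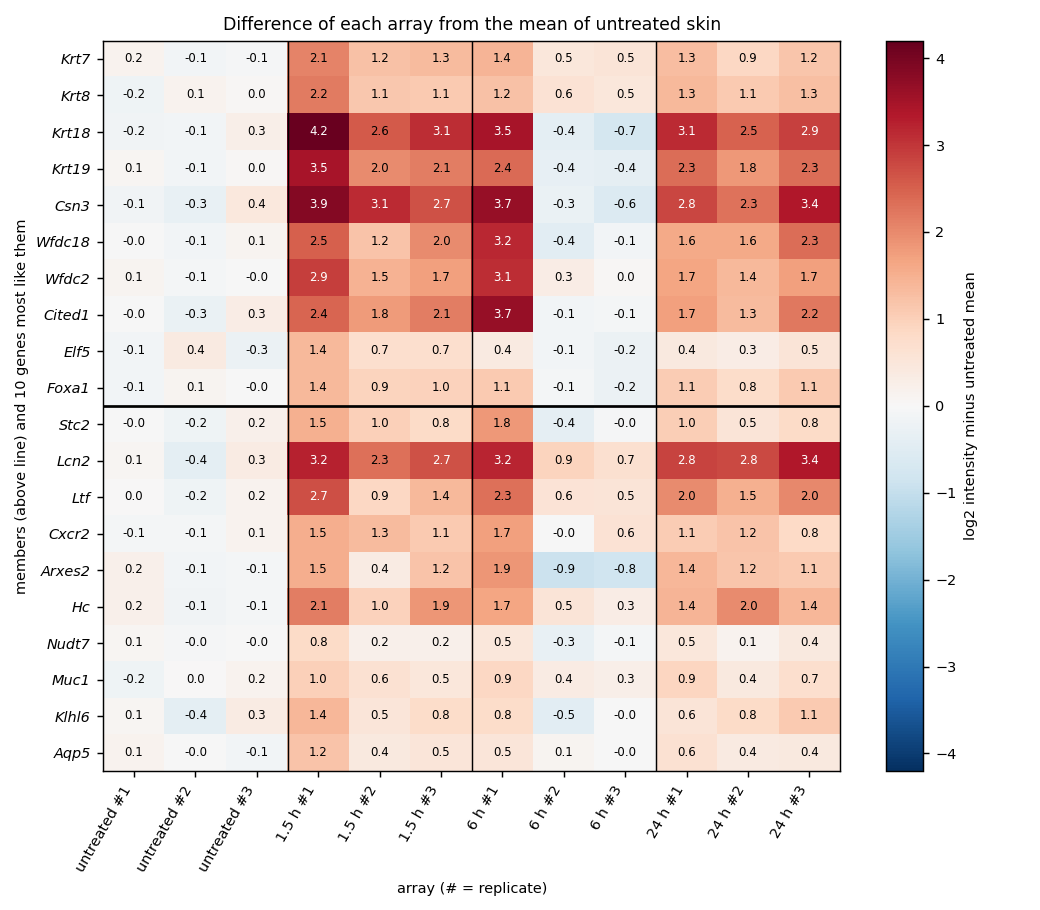
Log2 intensity of each array minus the untreated mean (colour and printed value) for the 10 members above the line and the 10 genes most like their mean below it, with the 12 arrays in columns. The values in the column of 6 h replicate 1 are above 0 for all 20 genes, and the columns of 6 h replicates 2 and 3 are near white or blue for most members, Krt7 and Krt8 excepted.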

How the data were processed

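RNA from 12 skin biopsies was amplified, labelled and hybridised to Affymetrix Mouse Gene 1.0 arrays. The values deposited are on a log2 scale, and the authors ran RMA to obtain them (Affymetrix Expression Console 1.1 is named in the submitters' processing notes). Detection calls were not used here, so no low value is called absent, and levels of different probe sets were not compared. Of 35556 probe sets, 21789 had 1 symbol, and the one with the highest mean was kept for 999 genes with several, leaving 19938 genes. Array medians ran from 5.53 to 5.76, and arrays of a group correlated at r = 0.98 to 0.987. With 3 arrays a group, precision is limited by their number.

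All 4 groups were fitted in R 4.3.3 using limma 3.58.1, functions lmFit and eBayes (8 residual and 5.24 prior degrees of freedom), two-sided, with Benjamini-Hochberg adjustment over 19938 genes and a threshold of 0.05. The fit was tested on simulated data with independent noise of equal spread in all groups. That simulation does not cover groups of unequal spread, such as the 6 h group for most members. Alternatives were the replicate block, each array left out, 3 further scalings, a low-value filter, mean probe sets, a robust variance trend and fits of only the groups compared. The members and lists were chosen with earlier results of these data known. Named genes are all members, the 3 largest differences of a list at 1.5 h with the largest call the other way, 13 marker genes and the 10 genes most like the members. Further genes behind small counts, and Pck1, Cxcl13, Xdh, Spdef and other list genes named for a call, were chosen after their values were seen. The labels used here state no pairing by replicate number, and none was assumed. Of 18 same-numbered pairs, 4 had correlated deviations over 0.1 (r from -0.22 to 0.33). The highest was 1.5 h replicate 1 with 6 h replicate 1, and differently numbered pairs ran from -0.28 to 0.24. These values do not settle whether samples were paired.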

Additional observations from a re-analysis of the deposited data

Results flagged for a closer look

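The naming rule selected list genes (marker genes and the largest differences of each list at 1.5 h). Of these, 13 differed between 6 h and 1.5 h, which is also the difference between their responses, since both share the untreated group. Choice by the 1.5 h difference used the same 1.5 h arrays that enter this test. Differences opposite in sign to the 1.5 h response were therefore favoured. Over all 19938 genes, 2646 were called in this comparison, and nothing is read from the count of 13. On the log2 scale of 6 h minus 1.5 h (limma, adjusted p under 0.05), the response genes gave 4.05 for Rsad2, 2.64 for Cxcl10 and -1.86 for Ifnb1. Smooth muscle and myoepithelial genes gave 1.28 for Myh11, 1.02 for Mylk and 0.69 for Acta2, and the sebaceous gland gene Far2 gave 0.92. The secretion gene Fabp3 gave -1.30, and the luminal genes Ceacam1 and Tspan8 gave -1.04 and -1.02. Over the whole lists, 3 of 23 luminal genes fell and 0 rose, and 3 of 18 milk and secretion genes fell and 1 rose, namely Xdh, with 1.86 (adjusted p = 2.42e-07). The remaining differences were -0.82 for Slc2a4, -0.73 for Myl1 and -0.67 for Tgm3.

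Between 24 h and 1.5 h, Ifnb1 differed by -3.37, Rsad2 by 1.90, Myh11 by 0.99 and Tgm3 by -0.76. Choice of genes by their 1.5 h difference bears on this comparison in the same way. Between 24 h and 6 h, Rsad2 differed by -2.15, Cxcl10 by -1.95, Ifnb1 by -1.51 and Ceacam1 by 0.87. No member was entered here, since the members were chosen on these arrays, and groups of 3 arrays were too small for the search for single outlying samples.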

How the results depend on the processing

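The mean difference of the 10 members kept its sign in all 6 comparisons under every setting tried except at 6 h, where it was -0.084 against untreated skin without 6 h replicate 1 and without both arrays high in Glycam1 (1.5 h and 6 h replicate 1), an alternative chosen after seeing the data. Leaving out 1 array at a time, it ran from 1.70 to 2.21 at 1.5 h, -0.08 to 1.16 at 6 h, 1.56 to 1.81 at 24 h, -2.09 to -0.85 from 1.5 h to 6 h, -0.54 to -0.03 from 1.5 h to 24 h and 0.51 to 1.75 from 6 h to 24 h. Genes changed numbered 439 at 1.5 h (97 to 597 without 1 array), 1215 at 6 h (712 to 1364), 670 at 24 h (423 to 756), 2646 from 1.5 h to 6 h (949 to 2951), 580 from 1.5 h to 24 h (321 to 653) and 685 from 6 h to 24 h (142 to 877). Without both arrays high in Glycam1 the count was 198 at 1.5 h and 1432 from 1.5 h to 6 h. Centring arrays on their medians gave 4609 from 1.5 h to 6 h and 1133 from 6 h to 24 h, for which a filter on low values gave 1053 and a fit of only those groups 247. With centring the median difference of all genes was 0.12 at 1.5 h, -0.17 from 1.5 h to 6 h and 0.11 from 6 h to 24 h. In the main fit these medians were 0.02, -0.03 and 0.02. Calls were higher in 27.8% of cases at 1.5 h (56.9% centred, 43.2% quantile), 55.5% at 6 h (48.4% centred, 69.4% cyclic loess, 42.5% low filter), 41.2% from 1.5 h to 6 h (16.5% centred, 55.0% cyclic loess) and 59.0% from 6 h to 24 h (80.2% centred, 44.0% cyclic loess, 43.3% only those groups). Genes called on the other lists numbered 10 at 1.5 h (2 to 16 without 1 array), 6 at 6 h (3 to 10, and 12 with the low filter), 8 at 24 h (3 to 13, and 19 without both arrays), 24 from 1.5 h to 6 h (9 to 27, and 44 centred), 5 from 1.5 h to 24 h (3 to 11, 8 with the low filter, 16 without both arrays) and 3 from 6 h to 24 h (1 to 5, 10 without both arrays, 1 with only those groups). At 6 h without both arrays, Cd79a was -0.66 and Arxes2 -0.87 against untreated skin. With the replicate number as a block, though the labels used here state no pairing, genes changed were 442, 1136 and 670 at 1.5 h, 6 h and 24 h. The causes were not tested. The low filter kept all 10 members.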
